A study of Homo sapiens with 6 samples.

Results

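The values below describe 12Z cells that had received a control siRNA without a target, measured by RNA-seq, and the members are the 3 libraries titled as 12Z controls, chosen by their titles from the 6 libraries of the series. 12Z is an immortalised human line grown from an endometriosis lesion and described by the submitters as epithelial. All 3 libraries came from cells in complete medium that had received the control oligo by lipid transfection and were lysed 72 h later, so every value below is that of transfected cells of this line, grown alone on plastic without the stroma, immune cells and hormones of a lesion. Polyadenylated RNA was sequenced in read pairs, and the study describes the 3 libraries as biological replicates. The other 3 libraries of the series, with LINC01133 knocked down, were not used.

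Epithelial cells are held together by E-cadherin, desmosomes and tight junctions and carry keratin filaments, and their gene programme is kept up by factors such as GRHL2, OVOL1 and the splicing regulators ESRP1 and ESRP2. Mesenchymal cells carry vimentin filaments and N-cadherin and build a collagen-rich matrix, and the repressors SNAI1, SNAI2, ZEB1 and ZEB2 are known to switch off E-cadherin when epithelial cells take on this state. The cells of an endometriosis lesion share the Müllerian origin of the uterus and grow on or below the peritoneum, whose own lining, the mesothelium, has keratins and vimentin at the same time. Endometriosis is known as an oestrogen-dependent and progesterone-resistant disease in which prostaglandins, cytokines and matrix remodelling have long been studied.

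Gene counts summed to 34761062, 29703111 and 31787694 in controls 1, 2 and 3, so 1 count was worth 0.0288 to 0.0337 CPM, a gene's count scaled to a common library total. Levels of different genes are compared in TPM, counts per length of the gene's merged exons scaled to a common total. CPM shows how the reads were shared out, and an order by CPM is one of reads and not of transcripts. Errors are SDs across the control libraries (n = 3 throughout). A gene was called detected at 1 CPM or more in each library, and silent at 0 counts in every library. Control 2 stood apart from the other two: the chi-square of its counts against control 1 was 12.7 per degree of freedom over 13878 genes and against control 3 it was 13.9, while controls 1 and 3 gave 3.96. It held more reads from long transcripts and fewer from the mitochondrial genome, which took 3.03% of its counts and 3.96% and 4.10% of those of controls 1 and 3. Values per library are therefore shown wherever a result turns on them.

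Of 60660 annotated genes, 12487 (20.6%) were detected, and of 19920 protein-coding genes 11485 (57.7%) were, the share against which the gene lists are read. Coding genes took 97.7% ± 0.233 of the counts and long noncoding genes 0.614% ± 0.00980. The distribution was broad rather than dominated by a few transcripts: the 10 genes with the highest CPM held 5.01% ± 0.333 of the counts, and between 1012 and 1024 genes were needed to reach 50%. Only 81 genes reached a mean of 1000 CPM and 2496 a mean of 100 CPM. Among detected genes the median level was 25.7 TPM, the upper quartile 63.3 TPM and the 99th percentile 727 TPM.

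The genes that took the most reads were the mitochondrial rRNA MT-RNR2 (11095 ± 1941 CPM) and MT-CO1, a subunit of cytochrome c oxidase (6494 ± 857 CPM). They were followed by EEF1A1, the elongation factor that delivers aminoacyl-tRNA to the ribosome (5680 ± 224 CPM), and by SPARC, a secreted matricellular protein that binds collagen. SPARC stood at 5386, 5393 and 5326 CPM in the 3 libraries, a coefficient of variation of 0.7%. The actins ACTB and ACTG1 (3793 ± 228 and 3593 ± 134 CPM) and the glycolytic enzymes GAPDH and ENO1 (3621 ± 70.2 and 3025 ± 35.6 CPM) were among the next. Among the rest of the 20 highest by CPM were the fibrillar collagens COL3A1 (3790 ± 33.4 CPM) and COL1A1 (2648 ± 191 CPM), the secreted glycoproteins FSTL1 (3168 ± 82.2 CPM) and THBS2 (2142 ± 144 CPM), and the simple-epithelial keratin KRT8 (3158 ± 77.7 CPM). The others were the mitochondrial MT-CO2, MT-ND4, MT-CYB and MT-RNR1, the non-muscle myosin MYH9 (2458 ± 185 CPM), the tubulin TUBA1B (2173 ± 59.1 CPM) and the giant scaffold gene AHNAK. AHNAK owed its place largely to control 2: it was at 1926, 3326 and 1940 CPM, a mean of 2397 CPM with control 2 and 1933 CPM without.

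Per length the mitochondrial genome led, with MT-RNR2 at 31400 ± 4747 TPM, MT-CO2 at 22346 ± 3777 TPM and MT-CO1 at 18600 ± 2031 TPM. All were lowest in control 2. The first nuclear gene was TMSB10, an actin-binding thymosin, at 9024, 9021 and 8446 TPM, followed by GAPDH (6689 ± 189 TPM), the ferritin light chain FTL (5944 ± 545 TPM) and SPARC (5124 ± 165 TPM), which ranked 16 of all genes. ACTG1, ACTB, TMSB4X, HSP90AB1 and TUBA1B came next, between 3926 and 2690 TPM. When each gene was given the length of its canonical transcript instead, GAPDH, ACTB, TMSB10, TMSB4X, ACTG1 and KRT8 were the 6 highest nuclear genes, so the exact order depends on the length used. All 31 genes of a cytoskeleton list were detected, with a median of 486 TPM. The ribosomal protein genes held 2.83% ± 0.0806 of the counts. Reads mapping to more than 1 place were dropped, so genes with near-identical copies are counted too low, which can touch GAPDH, KRT18 and KRT8, for which the annotation names 65, 68 and 51 pseudogenes.

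The keratins of simple epithelia were among the highest mRNAs of these cells. KRT18 was at 2524, 2620 and 2377 TPM, KRT19 at 2338, 2286 and 2235 TPM and KRT8, the usual filament partner of KRT18, at 2045, 2092 and 1957 TPM. Each of these genes was lowest in control 3. KRT7 followed at 119 ± 3.91 TPM, 19.2 ± 0.207 times lower than KRT19. KRT18 exceeded KRT8 1.23-fold by merged exons but was 0.695 times KRT8 by canonical transcript, so no order is given for that pair. Of 17 keratins listed 7 (41.2%, beside 57.7% of coding genes) were detected. Beside the keratins above these were KRT80 (33.9 ± 0.803 TPM), KRT10 (30.2 ± 0.400 TPM) and KRT15 (1.40 ± 0.116 TPM). The 10 not detected, most of them keratins of stratified epithelia, were at or near 0. KRT14, KRT16 and KRT17 had at most 11 counts in any library, and KRT1, KRT5, KRT6A, KRT20 and KRT23 had none in any.

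The other epithelial genes did not follow the keratins. Of 38 genes for adhesion and identity of epithelia, 22 (57.9%) were detected, close to the 57.7% of all coding genes, and their median of 3.70 TPM was below the 4.93 TPM of all coding genes. Desmosomes were an example of the split. The desmosomal cadherin DSG2 (133, 146 and 139 TPM), the plakophilin PKP2 (102 ± 1.91 TPM), plakoglobin, JUP (52.6 ± 2.97 TPM), DSC2 (25.1 ± 2.14 TPM) and PKP3 (9.66 ± 0.475 TPM) were all detected. Desmoplakin, DSP, which ties desmosomes to keratin filaments, had 4, 5 and 7 counts, so that DSG2 exceeded it by 2725 ± 832 times per length. Of 9 genes of tight junctions and apical polarity 5 were detected: the scaffold TJP1 (60.3 ± 2.64 TPM), CLDN1 (45.7 ± 4.32 TPM), F11R (43.5 ± 1.77 TPM), OCLN (11.1 ± 0.625 TPM) and CGN (7.20 ± 0.399 TPM). The claudins CLDN3, CLDN4 and CLDN7 and the polarity gene CRB3 were not, with at most 18 counts in a library.

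E-cadherin, CDH1, was low but present in each library, at 8.29, 10.2 and 8.79 TPM from 403, 402 and 389 counts. EPCAM, a surface protein of most simple epithelia, had 19, 12 and 9 counts and was below the level of detection, as were ST14 and RAB25. The factors that keep up the epithelial programme were mostly lacking. Of 9 such regulators 3 were detected, beside 57.7% of coding genes. These were the Krüppel-like factor KLF5 (77.9 ± 4.51 TPM), GRHL1 (3.03 ± 0.160 TPM) and ESRP2 (1.52 ± 0.544 TPM). GRHL2, OVOL1 and OVOL2 had 0 counts in all 3 libraries, which allows at most 0.0863 to 0.101 CPM (3 counts), and ESRP1 and EHF had a single count over the 3. The remaining high members of the list were MAL2, a protein of apical transport (127 ± 16.1 TPM), and the laminin-receptor integrins ITGA6 (86.2 ± 8.05 TPM) and ITGB4 (76.6 ± 3.17 TPM).

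SNAI1, SNAI2, ZEB1 and ZEB2 bind the hexamer CAGGTG, so the 250 bases upstream of RefSeq transcription starts (GRCh38.p14) were searched for CAGGTG on either strand, that is for CAGGTG or CACCTG. Of the 38 epithelial genes 22 had an entry. The hexamer was present for 6 of 9 that were not detected (66.7%) and for 9 of 13 that were (69.2%), beside 20.6% of 27305 symbols, each counted once if any of its windows held it, and 4 of 21 detected mesenchymal genes. The share was thus near the same in detected and undetected epithelial genes, over few genes. The 100 bases before the start are printed here for 3 epithelial genes, chosen because they were not detected and hold the hexamer close to the start, and, for contrast, for vimentin, one of the highest mesenchymal genes, with the hexamer in capitals. They lie at chr6:7541571-7541670 on the plus strand (DSP), chr17:7262479-7262578 on the minus strand (CLDN7, the downstream of 2 starts; the stretch before the other start holds no copy), chr19:6464171-6464270 on the plus strand (CRB3) and chr10:17228141-17228240 on the plus strand (VIM).
DSP: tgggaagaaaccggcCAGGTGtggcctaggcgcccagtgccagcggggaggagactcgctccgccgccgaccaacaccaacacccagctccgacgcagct
CLDN7: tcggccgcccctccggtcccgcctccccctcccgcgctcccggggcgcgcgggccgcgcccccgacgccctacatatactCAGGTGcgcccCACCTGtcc
CRB3: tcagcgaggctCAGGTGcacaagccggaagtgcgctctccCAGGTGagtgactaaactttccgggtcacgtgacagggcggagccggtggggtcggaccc
VIM: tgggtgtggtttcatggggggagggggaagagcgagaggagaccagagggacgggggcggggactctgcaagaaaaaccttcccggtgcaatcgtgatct
The stretch of DSP holds 1 copy, those of CLDN7 and CRB3 hold 2 each, and that of VIM holds none. A match of letters says nothing of binding in these cells.

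Mesenchymal genes were nearly all present. Of 38 listed, 36 (94.7%, beside 57.7% of coding genes) were detected with a median of 48.6 TPM, and FOXC2 and PRRX1 were the exceptions, PRRX1 at 0 counts throughout. Matrix genes led: SPARC, COL3A1 (2483 ± 87.8 TPM), COL1A1 (1303 ± 131 TPM), the matricellular POSTN (723 ± 57.0 TPM), COL5A2 (617 ± 38.3 TPM), the proteoglycan LUM (581 ± 41.2 TPM) and the crosslinking enzyme LOX (336 ± 17.1 TPM). Vimentin, VIM, was at 1362, 1412 and 1322 TPM, 0.545 ± 0.00963 times the level of KRT18, so keratin and vimentin filament genes were both among the 60 highest. The surface protein THY1 stood at 212 ± 14.9 TPM and NT5E at 111 ± 12.0 TPM. Fibroblast genes were not uniformly high: PDGFRB reached 46.4 ± 3.47 TPM, but FAP, PDGFRA, the smooth muscle actin ACTA2 and COL6A3 stood at 3.79, 3.49, 2.13 and 1.26 TPM.

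The repressors of the epithelial state were detected, but only ZEB1 lay above the median of detected genes, 25.7 TPM. SNAI1 and TWIST2 lay below their lower quartile, 8.95 TPM. ZEB1 was at 28.9 ± 1.82 TPM, SNAI2 at 22.6 ± 3.35 TPM, TWIST1 at 14.1 ± 1.87 TPM, ZEB2 at 13.9 ± 0.913 TPM, SNAI1 at 8.10 ± 0.808 TPM and TWIST2 at 5.81 ± 1.13 TPM. The order of ZEB1 and ZEB2 is not firm, since their ratio was 2.08 by merged exons and 1.08 by canonical transcript. N-cadherin, CDH2 (chromosome 18, 27932879 to 28177946 on GRCh38), had 13364, 12013 and 11807 counts and exceeded CDH1 (chromosome 16, 68737292 to 68835537) 23.5-fold, 21.2-fold and 21.5-fold per length. The mean was 22.0 ± 1.26 by merged exons and 37.2 by canonical transcript. CDH2 was also the highest of the 4 cadherins followed, at 199.6 ± 13.9 TPM, beside CDH11, a mesenchymal cadherin (37.5 ± 5.86 TPM), and P-cadherin, CDH3 (18.1 ± 0.569 TPM).

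Type I collagen is a trimer of 2 chains from COL1A1 and a single chain from COL1A2, and in these cells the chains were far from that proportion. COL1A1 (chromosome 17, 50184101 to 50201632) stood at 1239, 1454 and 1217 TPM, and COL1A2 (chromosome 7, 94394895 to 94431227) at 15.1, 20.1 and 12.2 TPM. The ratio was 84.7 ± 14.1 by merged exons and 59.0 by canonical transcript, and no library came near the proportion of the trimer. COL3A1, which forms a trimer of its own chain alone, exceeded COL1A1 1.91-fold ± 0.119. The fibronectin gene FN1 was at 89.8, 128 and 86.0 TPM, highest in control 2. Beside these, the basement membrane chains COL4A1 and COL4A2 were at 161 ± 9.51 and 169.6 ± 6.78 TPM.

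Markers of the tissues in which lesions arise or grow gave a mixed picture. Of 24 genes of Müllerian and endometrial epithelium 8 (33.3%, beside 57.7% of coding genes) were detected. These were GATA6 (225 ± 5.87 TPM), WT1 (81.6 ± 1.35 TPM), ARID1A, members of the HOXA cluster and PAX8. PAX8, the usual marker of Müllerian epithelium, was detected at only 1.40 ± 0.0591 TPM, and SOX17 was below detection. PAX2, EMX2, LHX1, FOXA2 and the secretoglobin SCGB2A1 had no count, and FOXJ1, a factor of ciliated cells, had 1. Of 18 genes of endometrial stroma and its decidua 12 (66.7%) were detected, beside the same 57.7%. They included the stromal factors KLF9 (198 ± 6.94 TPM), NR2F2 (88.5 ± 6.12 TPM) and HAND2 (66.4 ± 6.40 TPM), but the decidual hormones PRL and IGFBP1 had no count in any library.

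Of 15 mesothelial genes 9 (60.0%) were detected, a share near the 57.7% of coding genes, with a list median of 17.3 TPM, beside 4.93 TPM for all coding genes. LRRN4 was at 257, 272 and 249.9 TPM, the transcription factor BNC1 at 174 ± 2.55 TPM, calretinin, CALB2, at 156, 136 and 161 TPM, podoplanin, PDPN, at 105 ± 4.92 TPM, mesothelin, MSLN, at 47.1 ± 4.08 TPM, the uroplakin UPK1B at 42.6, 47.5 and 42.0 TPM and UPK3B at 17.3 ± 3.07 TPM. KRT5 and GATA4, also in the list, had no count, and MUC16, the CA-125 antigen, had at most 9. WT1, which the list shares with that of Müllerian genes, was at 80.9, 83.2 and 80.8 TPM. The label of an epithelial line thus matched the simple keratins and parts of the junctions, while EPCAM, desmoplakin and 6 of the 9 epithelial regulators, all below detection, went against it, and E-cadherin was present at a low level.

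Of 39 HOX genes, which set position along the body axis, 22 (56.4%) were detected, near the 57.7% of coding genes. The clusters differed. All 11 genes of the HOXA cluster were detected, 7 of 10 in HOXB, 3 of 9 in HOXC and 1 of 9 in HOXD. HOXC5, counted as not detected, shares 67.3% of its exonic bases with another gene on the same strand. The highest were HOXA5 (179 ± 2.09 TPM), HOXA9 (77.9 ± 3.87 TPM), HOXB7 (69.4 ± 2.13 TPM) and HOXA10 (64.6 ± 1.93 TPM), and HOXA11, which with HOXA10 patterns the uterus, was at 31.1 ± 1.33 TPM. HOXB1, HOXB13, HOXC13, HOXD1, HOXD12 and HOXD13 had no count.

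Markers of blood, vessel and nerve cells were mostly at or near 0. Of 16 leukocyte genes 2 (12.5%) were detected, of 12 endothelial genes 4 (33.3%), and of 10 neuronal and glial genes 2 (20%). The share of all coding genes was 57.7%. The leukocyte genes PTPRC, ITGAM and LYZ had at most 25, 8 and 1 counts in a library, and CD3E, CD3D, MS4A1, NKG7, TYROBP and HLA-DRA had none. CD14, the lipopolysaccharide co-receptor best known from monocytes, was the clear exception at 139, 149 and 128 TPM, and CD74, the invariant chain, the other gene detected, had 47, 42 and 59 counts. Among endothelial genes PECAM1 had at most 3 counts and ERG 1, yet the VEGF receptor KDR stood at 31.5, 33.1 and 31.6 TPM from 1599, 1363 and 1457 counts. The summed level of the leukocyte list was 131 to 151 TPM, nearly all of it CD14, and that of the endothelial list 49.0 to 54.0 TPM. The other endothelial genes detected were EGFL7 (14.1 ± 1.52 TPM), TIE1 (3.38 ± 0.163 TPM) and CDH5 (1.41 ± 0.0991 TPM). Of 10 smooth muscle genes 5 (50%) were detected, near the 57.7% of coding genes. They were led by TAGLN (96.3 ± 9.36 TPM), which is also in the mesenchymal list and shares 38.1% of its exonic bases with another gene on the same strand. MYH11 had at most 2 counts and MYOCD none.

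Receptor tyrosine kinases were represented by about as many members as coding genes at large, with 30 of 58 (51.7%) detected. AXL, the receptor of the ligand GAS6, was the highest at 428, 481 and 405 TPM. It exceeded EPHA2 (124, 124 and 113 TPM) 3.65-fold ± 0.219 and EGFR (99.2, 130.2 and 98.5 TPM) 4.04-fold ± 0.317. EPHA2 and EGFR overlapped between libraries and have no firm order. By canonical transcript EGFR stood at 105.5 TPM and EPHA2 at 75.5 TPM, and PTK7, lower by merged exons, at 105.4 TPM. The collagen receptor DDR2 (93.7 ± 7.85 TPM), PTK7 (82.5 ± 3.98 TPM), the WNT5A receptors ROR2 and ROR1 (56.5 ± 0.106 and 50.8 ± 1.44 TPM), PDGFRB, ERBB2 (42.4 ± 0.978 TPM) and the HGF receptor MET (41.6 ± 3.83 TPM) came next. Of 14 ephrin receptors 6 were detected, beside 57.7% of coding genes. KIT, RET, FLT1, FGFR2 and ERBB4 were below detection, and INSRR, EPHA3, EPHA8 and EPHB1 had no count.

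**Figure D1:**
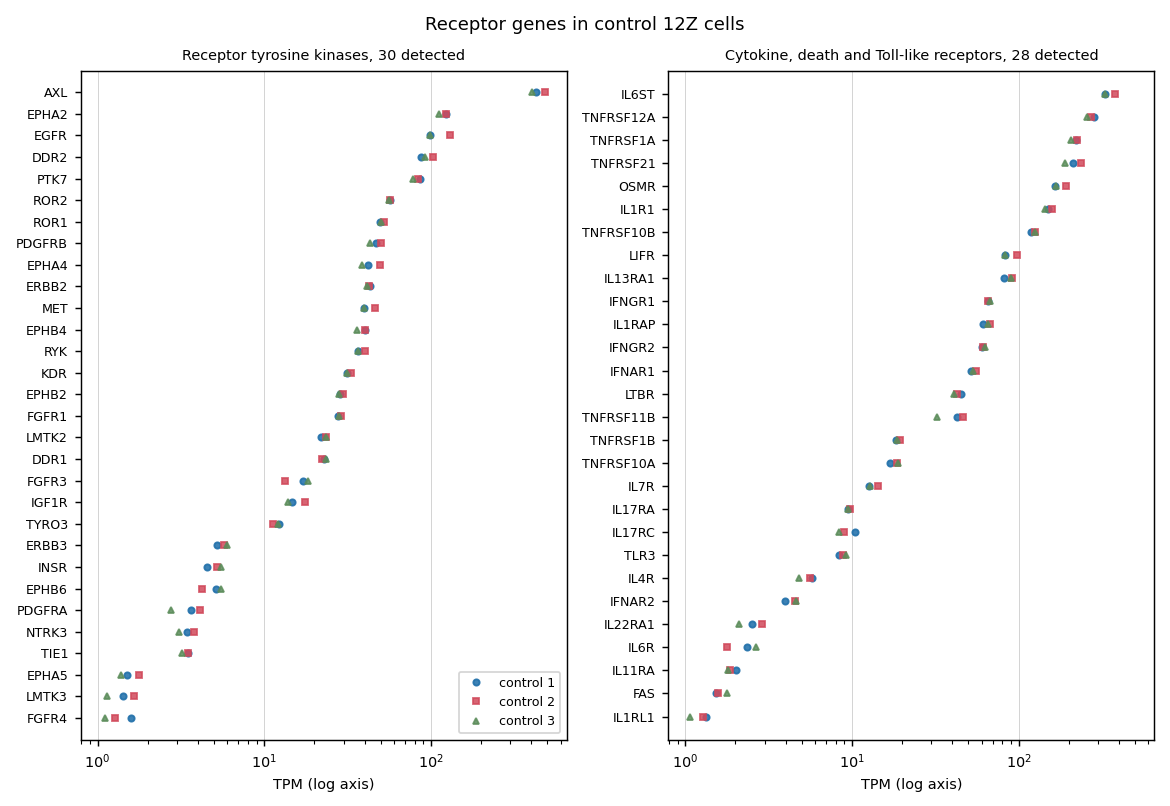
Levels of the 30 receptor tyrosine kinases (left) and the 28 cytokine, death and Toll-like receptors (right) that were detected, in TPM on a log axis with 1 symbol per control library. AXL stands apart from the other kinases at 405 to 481 TPM, and IL6ST heads the right panel, followed by TNFRSF12A.

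Among cytokine and death receptors, 28 of 50 (56.0%) were detected, near the 57.7% of coding genes. By merged exons the highest was of the gp130 family. IL6ST, the shared signal chain gp130, was at 344 ± 28.1 TPM, and its partners for oncostatin M and LIF, OSMR and LIFR, at 175 ± 16.1 and 88.2 ± 8.80 TPM, while IL6R was at 2.26 ± 0.441 TPM. The TWEAK receptor TNFRSF12A (271 ± 11.5 TPM), the TNF receptor TNFRSF1A (218 ± 9.33 TPM), the death receptor TNFRSF21 (212 ± 23.2 TPM) and the interleukin 1 receptor IL1R1 (151 ± 8.06 TPM) were also high. By canonical transcript TNFRSF12A stood at 299.9 TPM and IL6ST at 276 TPM, so their order is not firm. None of 11 chemokine receptors was detected. CXCR4, CXCR5 and CX3CR1 had 1 count at most in any library, and CXCR1, CXCR2, CXCR3, ACKR3, CCR1, CCR2 and CCR7 were among those with no count. TLR4 also had no count, whereas the RNA sensor TLR3 was at 8.76 ± 0.423 TPM.

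Of 32 G protein-coupled receptors and partners 19 (59.4%) were detected, again near the 57.7% of coding genes. The orphan receptor GPRC5A (255 ± 19.8 TPM) and the oxytocin receptor OXTR (208, 224 and 190.4 TPM) led, and the bradykinin receptor BDKRB1 (95.3 ± 10.3 TPM) and the thrombin receptor F2R (74.6 ± 4.26 TPM) followed. Among integrins 16 of 26 (61.5%) were detected, also near that share, with the shared chain ITGB1 at 446 ± 24.0 TPM and the fibronectin and laminin receptor chains ITGA5 and ITGA3 at 192 ± 14.0 and 142 ± 10.1 TPM. The leukocyte chains ITGAL, ITGAM, ITGAX and ITGB2 were below detection. Of 14 receptors of TGF-beta and BMP 11 (78.6%, beside 57.7% of coding genes) were detected. TGFBR2, BMPR2 and TGFBR1 were at 63.7 ± 3.16, 59.8 ± 10.3 and 58.7 ± 2.86 TPM.

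The receptors of oestrogen and progesterone were not detected. ESR1, the oestrogen receptor alpha, had 31, 29 and 35 counts, PGR had 20, 25 and 22, and ESR2 had 0, 0 and 2. ESR1 lay at the edge of the detection level, with a mean of 0.990 CPM, but its mean was 0.319 TPM. Of 48 nuclear receptors 22 (45.8%, beside 57.7% of coding genes) were detected. The orphan receptors NR2F1 (161 ± 9.67 TPM) and NR2F2 and the clock regulator NR1D2 (92.9 ± 4.56 TPM) were the highest, and the glucocorticoid receptor NR3C1 was at 69.5, 81.4 and 70.9 TPM. HNF4A, NR0B2, NR1I3, NR5A1 and ESRRB had no count.

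Of 28 genes of steroid and prostaglandin metabolism 15 (53.6%) were detected, near the 57.7% of coding genes. Aromatase, CYP19A1, which makes oestrogens, had no count in any library, nor had HSD3B2, HSD17B2 or SULT1E1, while STAR, the cholesterol carrier of steroid-making cells, was at 5.22 ± 0.412 TPM and the oestrogen hydroxylase CYP1B1 at 133 ± 9.80 TPM. Both cyclooxygenases, which begin prostaglandin synthesis, were below detection: PTGS1 had 28, 20 and 22 counts and PTGS2 34, 28 and 22. The synthases that act after them were present, with prostacyclin synthase, PTGIS, at 324, 359 and 305 TPM and the prostaglandin E synthase PTGES at 68.5 ± 2.13 TPM. Of 8 prostanoid receptors only PTGFR (43.3 ± 6.75 TPM) and TBXA2R (2.57 ± 0.369 TPM) were detected, and PTGIR, the prostacyclin receptor, had at most 17 counts.

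Secreted factors were represented more widely than coding genes at large, with 132 of 188 (70.2%, beside 57.7% of coding genes) detected, most of all the matrix genes. Of 76 genes of matrix and proteolysis 67 (88.2%) were detected, of 64 growth factors and antagonists 44 (68.8%) and of 48 cytokines, chemokines and complement genes 21 (43.8%). Beside the collagens and SPARC the matrix list was led by the galectin LGALS1 (2116 ± 53.7 TPM) and THBS2 (1319 ± 123 TPM). IGFBP4, which binds insulin-like growth factors, followed at 779 ± 40.0 TPM. Of 8 matrix metalloproteinases 3 were detected, beside 57.7% of coding genes. These were MMP14 (149.7 ± 3.22 TPM), MMP24 (56.6 ± 1.69 TPM) and MMP2 (50.8 ± 1.27 TPM). MMP3, MMP7, MMP9 and MMP10 had at most 3 counts in a library.

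FSTL1 was by far the highest of the growth factor list at 1443, 1584 and 1446 TPM. The WNT antagonists DKK1 and SFRP1 (495 ± 69.0 and 415 ± 78.2 TPM), the matricellular CCN1 (457 ± 27.9 TPM) and the vasodilator peptide adrenomedullin, ADM (232 ± 13.7 TPM), were next. All 4 PDGF ligands were detected and 2 of the 8 ERBB ligands, beside 57.7% of coding genes. The ERBB ligands detected were HBEGF (55.9 ± 2.39 TPM) and NRG1 (0.849 ± 0.120 TPM), and TGFA and EREG had at most 2 counts. IGF1, BMP7 and ANGPT2 had no count. The list of cytokines and complement was led by complement genes, C3 at 138, 133 and 154 TPM, C1S at 113 ± 8.58 TPM and C1R at 67.4 ± 5.38 TPM, with the neutrophil chemokine CXCL6 (69.1 ± 7.30 TPM), CSF1 (52.7 ± 3.87 TPM) and IL18 (51.7 ± 2.46 TPM) beside them. By canonical transcript C1S (209 TPM) exceeded C3 (189 TPM). CXCL8 and CCL2 were low, at 5.94 ± 1.79 and 16.1 ± 3.43 TPM, and the cytokine IL6 had 1, 0 and 1 counts. TNF, IFNB1, CSF2, CXCL9, CXCL11, CCL20 and CCL8 had no count.

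Cell cycle genes were high. Of 40 cell cycle genes 38 (95%, beside 57.7% of coding genes) were detected, with a median of 162 TPM. Among them were PCNA (1130 ± 28.1 TPM), TOP2A (773 ± 34.3 TPM), CCNB1 (581 ± 5.23 TPM) and all 6 MCM helicase subunits. The cyclins were uneven. CCNA2, the cyclin of S phase and G2, stood at 325 ± 6.39 TPM, 157 ± 15.5 times above CCND1, which had 80, 70 and 65 counts, and CCND2 had no count, so that CCND3 (44.9, 44.4 and 42.8 TPM) was the highest D-type cyclin. CCNA1, usually a cyclin of the germ line, was at 61.6 ± 1.02 TPM. The inhibitors CDKN2A and CDKN1A were at 93.2 ± 3.81 and 48.6 ± 1.23 TPM.

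Of 41 genes of interferon response and RNA sensing 30 (73.2%, beside 57.7% of coding genes) were detected. The interferon genes IFNB1 and IFNL1 had no count in these cells. IFIT3 and IFIT1, which bind foreign RNA, were at 59.4 ± 2.87 and 52.8 ± 2.80 TPM, and IFI6 and ISG15 at 79.0 ± 3.11 and 61.7 ± 5.43 TPM. MX2, OAS2, IFI27 and IFI44L were below detection. HLA-B and HLA-C stood at 34.6 ± 2.81 and 34.1 ± 1.30 TPM, although alleles that differ from the reference can lose reads to mismatch and HLA-B shares 32.7% of its exonic bases with another gene on the same strand. No untransfected cells were sequenced, so the part of the transfection in these levels cannot be told apart from the line's own.

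Long noncoding genes were few and low: 625 of 16763 (3.73%) were detected and none reached 1000 CPM. By CPM, which favours long transcripts, the highest were MALAT1 (519, 602 and 394 CPM), NEAT1 (391, 342 and 318 CPM), the cytoplasmic NORAD (278 ± 15.5 CPM), FGD5-AS1, SNHG29, OIP5-AS1, MAGI2-AS3, SNHG1, LINC00963 and SNHG16 (69.4 ± 3.01 CPM). Per length of merged exons NORAD (228 ± 14.3 TPM) and MALAT1 (215 ± 49.4 TPM) overlapped between libraries, and NEAT1 was at 68.1 ± 6.78 TPM. By canonical transcript SNHG29 (742 TPM), SNHG16 (370 TPM), FGD5-AS1 (333 TPM) and MAGI2-AS3 (330 TPM) lay above NORAD (137 TPM) and MALAT1 (129 TPM). The order of these genes per length is therefore not firm. LINC01133 (chromosome 1, 159958035 to 159984750), the target of the study, had 859, 726 and 808 counts and stood at 29.5 ± 0.625 TPM, above the median of detected genes. HOTAIR had at most 3 counts, and HOTTIP and UCA1 had none.

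Of all 60660 genes 33788 (55.7%) were silent, and of the coding genes 4570 (22.9%). Families grouped by symbol, after their values were seen, accounted for many of these: 396 of 416 olfactory receptors, 93 of 94 keratin-associated proteins, 39 of 40 beta-defensins and all 13 interferon alpha genes were silent. At the other end, 35 of 515 genes with a ZNF symbol were silent and 418 were detected. Some counts of 0 cannot be read as a level. MIF, CFB and IL2RG were listed at 0 and share 48.9%, 42.8% and 51.3% of their exonic bases with another gene on the same strand, where reads are ambiguous and not counted. Whether this set their counts was not tested, and RIGI, with 43.2% shared, had 932, 812 and 831 counts. IGF2 (1 count in all) and CD68 (2, 0 and 2 counts) share 43.2% and 81.6%, and HOXC5 (8, 11 and 12 counts) shares 67.3%. For MIF, CFB, IL2RG, IGF2, CD68 and HOXC5 no level is given. The list shares above count these genes as not detected and may be too low for that reason. IRF9, a factor of the interferon response, was also listed at 0 and shares 23.9%. Whether its reads were lost to overlap in the annotation used for counting was not tested.

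The replicates were close, and what spread there was lay mainly between control 2 and the other two. Among 11108 genes with a mean of 100 counts or more the median coefficient of variation was 4.60% (quartiles 2.78% and 7.44%). In 2796 of them (25.2%) the spread was no larger than counting error, 1479 (13.3%) varied by over 10% and 60 by over 25%. The common biological coefficient of variation, the spread beyond counting error estimated by edgeR over 14323 genes, was 0.0554, and it was 0.0372 without control 2. Of the 100 genes with the largest spread, control 2 was the farthest from the median in 83. The 10 largest were COPG2IT1, KCNQ1OT1, ZBTB20, RN7SL1, DST, SYNE2, HMCN1, EIF4A1, GNB3 and SEC31B. DST, which encodes a giant linker of the cytoskeleton, was at 497, 960 and 458 CPM, and SYNE2, a giant protein of the nuclear envelope, at 89.7, 178 and 92.6 CPM.

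Length went with this spread. Against the mean log2 CPM of the other two libraries, control 2 was lower by a median of -0.07 for 503 genes with canonical transcripts under 1 kb and higher by 0.10 for 934 genes of 8 to 15 kb. For the 89 genes of 15 kb and over the median difference was 0.19 and 80 lay above 0. In controls 1 and 3 the same genes were lower by medians of -0.12 and -0.15. This is no separate result, since the 3 differences of a gene sum to 0. Among these 89 genes, named after their values were seen, were the motor heavy chain DYNC1H1 (464, 765 and 460 CPM) and the ubiquitin ligase UBR4 (238, 395 and 233 CPM). NCKAP1 (430, 463 and 431 CPM) was also highest in control 2, by less. FN1 and MKI67 were also highest in control 2, and their mean CPM fell from 392 to 347 and from 952 to 856 without it. RNA quality values were not used here, and their part in it was not tested.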

How the data were processed

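Per the labels, the authors aligned the reads to GRCh38.p13 with STAR 2.7.6a (SAMtools 1.10 is also named), and deposited the counts per gene that STAR writes for GENCODE 36 annotation, unstranded and for each strand. Reads mapping to more than 1 place were dropped. The labels name an NEB kit and the study's methods a TruSeq kit. Here the reverse-strand counts of the 3 control libraries were used (94.0% of strand-assigned counts lay on this strand); rows that name no gene stayed out of all totals. Among uniquely mapped pairs 4.38% to 4.74% hit no gene and 3.88% to 4.12% were ambiguous.

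CPM was computed from the sum of gene counts, and TPM from merged exon lengths of GENCODE 44, which lacks 241 of the genes (0.0784% of counts). Canonical transcript lengths were a second scale, added after the data were seen. Named were the 20 highest genes by CPM and by TPM, the 10 highest long noncoding genes, the 10 most variable genes, and members of gene lists, highest first, with those at 0. Of 28 long noncoding genes listed 27 matched. The members and lists were chosen with earlier results of these data known. No groups were compared and no hypothesis test was run, since 3 libraries of a single group allow no sign-flip p below 0.25. Spread was estimated with edgeR 4.0.16 in R 4.3.3 (TMM, filterByExpr) and tested on simulated data, with DESeq2 1.42.0 size factors as an alternative. Intervals and floors cover counting error only. Some list members are counted in the totals but not reported by name here.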

Additional observations from a re-analysis of the deposited data

Results flagged for a closer look

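The deposited tables also hold counts on the opposite (forward) strand, which no value above uses, and 1915 genes reached 1 CPM there with less than 10% of that on the strand used. The signals were high for genes that lie opposite abundant mRNAs: TUBA1B-AS1 at 1966 CPM, opposite TUBA1B, ENSG00000269968 at 1529 CPM, opposite GAPDH, THBS2-AS1 at 1111 CPM, opposite THBS2, ALDH1A3-AS1 at 1046 CPM, opposite ALDH1A3, and BEST1 at 951 CPM, opposite FTH1. On the reverse strand TUBA1B-AS1 had 2.51 CPM and ENSG00000269968 had 0.916 CPM. Each was listed because it appeared in a column outside the main measurement, and whether any of these reads came from the antisense gene itself was not tested.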

How the results depend on the processing

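Of 70 alternative values 64 stayed within 1.5 times of the count reported, or within 1 SD of the value reported. For the common biological coefficient of variation this SD was that of its own leave-one-out values, so it is no independent margin for them. TMM factors lay between 0.995 and 1.005, and counts of detected genes under TMM or DESeq2 scaling equalled those reported. Scaling could thus hardly move these counts past the margin. Only the log2 ratio of CDH2 to CDH1 has a direction that could change, and it was positive in every alternative. Apart from these 70 values, canonical transcript length turned some orders found by merged exons. Among them were those of KRT18 and KRT8, EPHA2 and EGFR, IL6ST and TNFRSF12A, C3 and C1S, and the highest long noncoding genes. The share of the 10 highest genes was 3.93% when the mitochondrial genome was left out, with other genes taking its place, and 4.90% to 5.22% when each replicate was left out in turn. The log2 ratio of CDH2 to CDH1 per length, 4.46 ± 0.08 over the libraries, was 4.61 from unstranded counts, 5.22 with the length of the longest transcript or of the canonical one (the latter added after the data were seen) and 4.96 without length correction, and 4.41 to 4.49 without each replicate. The common biological coefficient of variation ran from 0.0372 to 0.0627, lowest without control 2. Leaving out each replicate gave 12546 to 12616 genes detected and 35085 to 35238 silent, and 39699 genes had at most 3 counts over the 3 libraries. At 5 CPM instead of 1 CPM, 10310 genes, 19 epithelial and 32 mesenchymal members were detected, and at 0.5 CPM 13531, 22 and 37. Scaling factors cancel in the share of the 10 highest genes, in the cadherin ratio and in counts of silent genes, so they gave no separate value there. No paired analysis was possible because a single group was described and its results come from no test. Depth limits statements on genes near 0, and multi-mapping and overlapping genes are undercounted.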
